A study of Mus musculus with 284 samples.

Results

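DNA replication genes encode the proteins that copy the genome: 37 of them, chosen by name for this function, were followed through 284 single tumour propagating cells of mouse skin. All 37 genes had a row among the 54247 gene IDs of the deposited table. The cells came from 4 mice, KO1 (73 cells) and KO3 (54 cells) labelled Sirt6-/- and WT1 (69 cells) and WT2 (88 cells) labelled wild type. Every mouse had been given the carcinogen DMBA once at 8 weeks of age and then TPA, a tumour promoter, over more than 20 weeks, and carried a YFP reporter switched on by Cre under the keratinocyte promoter Keratin14, so the sort kept only cells of that lineage. Living YFP-positive cells with CD34 and CD49f on their surface were sorted from dissociated tumours and sequenced with a modified Smart-seq2 protocol, which reads whole transcripts without molecular identifiers. Each sample was a single cell, so the mouse was the replicate, with 2 mice per genotype, and KO1 and KO3 lay on plates 1 and 2 while WT1 and WT2 lay on plates 3 and 4. Plate and genotype therefore cannot be told apart.

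SIRT6 is a chromatin-bound deacetylase, and the transcript of its gene did not separate the labels. Levels of a gene over the cells of a mouse are given as CPM, counts scaled to a common library total. Sirt6 had 27.0 CPM in KO1 and 14.5 CPM in KO3, against 16.7 CPM in WT1 and 25.2 CPM in WT2, with a count in 69.9%, 68.5%, 69.6% and 65.9% of the cells of KO1, KO3, WT1 and WT2. The labels do not say which exons were deleted, so transcript from outside the deleted stretch is not a check of the genotype. The mice are called here by their labels. The cells were keratinocytes by their markers: the basal keratins Krt5 and Krt14 were counted in 100% of the cells and the epithelial transcription factor Trp63 in 97.5%. Itga6, the gene of CD49f, was counted in 91.9% and Cd34 in 72.9%. Summed fibroblast markers reached at most 1.72 CPM (KO3), endothelial markers 3.05 CPM (KO1) and melanocyte markers 4.69 CPM (KO1). The melanocyte gene Pmel was counted in 7.39% of the cells. Summed over 5 immune markers the level was 1.32 CPM in KO1, 0.784 in KO3, 0 in WT1 and 20.5 in WT2, and the T cell gene Cd3e was at 0. Lyz2 made most of the value in WT2, with 16.9 CPM from a count in 11 cells. Total counts per cell lay between 523999 and 1684464, and the median cell had 6364 detected genes. After each cell was thinned to 500000 counts, the median number of detected genes was 6009 in KO1, 6160 in KO3, 6537 in WT1 and 5521.5 in WT2.

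A replication origin is licensed when Cdc6 and Cdt1 help to load the ring-shaped Mcm2-7 helicase onto DNA before S phase. Cdc45, the GINS complex and Mcm10 then turn the helicase on, primase and DNA polymerases copy the strands, the sliding clamp Pcna holds the polymerases on DNA, and Fen1 and Lig1 join the pieces of the lagging strand. Many of these genes are known targets of E2F transcription factors, which are released from the retinoblastoma protein as a cell enters the cycle. In epidermis, DNA replication is a property of basal cells, and keratinocytes leave the cycle as they move up and differentiate.

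The promoters show a feature that the choice of genes by name did not use. Whether it bears on how the genes moved together between cells was not tested. RefSeq start sites on GRCm38.p6 were at hand for 29 of the 37 genes, each with a window of 250 bases before and 50 bases after the start. The E2F-type letters TTTCCCGC, TTTCGCGC, TTTGCCGC and TTTGGCGC, read on both strands, occurred in the windows of 12 of these 29 genes (41.4%), against 704 of 27025 genes in the whole table (2.61%). Those 12 genes were Cdc6, Cdt1, Dtl, Gins3, Lig1, Mcm3, Mcm5, Mcm6, Mcm7, Pola1, Pold1 and Rfc3. CCAAT, likewise on both strands, was found for 19 of the 29 genes (65.5%) and for 41.1% of all genes. The letters TTTGAA or TTCGAA of the CHR element, known from genes of mitosis, were found for 7 of the 29 genes (24.1%) and for 21.7% of all genes. A match is a stretch of letters and not a measured binding site, and the shares over all genes were not matched for base composition. Stretches of 120 bases before and 30 bases after the start follow for 5 genes that hold E2F-type letters there, in capitals, and for Rrm2, the gene with the highest level per length, whose window holds none. In Mcm6 the run of 12 capitals is a pair of overlapping matches, each on its own strand.
Mcm3, chr1:20820283-20820432, minus strand: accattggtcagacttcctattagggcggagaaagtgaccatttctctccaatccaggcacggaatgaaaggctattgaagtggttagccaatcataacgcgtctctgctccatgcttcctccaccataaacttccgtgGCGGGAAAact
Mcm6, chr1:128359676-128359825, minus strand: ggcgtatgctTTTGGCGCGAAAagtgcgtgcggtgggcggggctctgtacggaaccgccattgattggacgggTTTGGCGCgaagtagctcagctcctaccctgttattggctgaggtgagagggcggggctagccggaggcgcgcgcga
Mcm7, chr5:138171854-138172003, minus strand: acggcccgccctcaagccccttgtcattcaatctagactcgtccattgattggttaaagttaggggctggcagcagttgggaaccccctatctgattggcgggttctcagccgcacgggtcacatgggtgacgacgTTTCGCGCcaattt
Rfc3, chr5:151651179-151651328, minus strand: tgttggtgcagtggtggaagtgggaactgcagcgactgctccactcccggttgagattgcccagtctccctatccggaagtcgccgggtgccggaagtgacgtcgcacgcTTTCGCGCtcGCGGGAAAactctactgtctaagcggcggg
Dtl, chr1:191575515-191575664, minus strand: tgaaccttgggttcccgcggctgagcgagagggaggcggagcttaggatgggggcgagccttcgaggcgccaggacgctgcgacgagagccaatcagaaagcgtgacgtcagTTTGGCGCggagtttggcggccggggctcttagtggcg
Rrm2, chr12:24708134-24708283, plus strand: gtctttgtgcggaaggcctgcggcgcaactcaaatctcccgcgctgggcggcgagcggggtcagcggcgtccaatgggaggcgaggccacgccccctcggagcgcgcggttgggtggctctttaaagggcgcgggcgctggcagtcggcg

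Per length, the level of the genes spanned more than 2 orders of magnitude, with the nucleotide enzyme Rrm2 at the top. That span rests on Fen1, with a mean of 2.02 TPM, since Dtl, the next lowest, averaged 5.49 TPM. Levels between genes were compared per length, as TPM, in which the counts of all cells of a mouse were divided by the merged exon length of the gene before scaling. Rrm2, the small subunit of ribonucleotide reductase, had 278 TPM in KO1, 395 in KO3, 334 in WT1 and 174 in WT2. Its partner subunit Rrm1 averaged 121 TPM over the 4 mice and thymidylate synthase, Tyms, 22.4 TPM. The order of Rrm2 and Rrm1 depends on merged exon lengths of 2771 and 11012 bases. By CPM Rrm1 was the higher, with 492 in KO1, 728 in KO3, 623 in WT1 and 383 in WT2. Rrm2 had 328, 473, 371 and 201 CPM in KO1, KO3, WT1 and WT2. Of the 6 helicase subunits, 5 came next after Rrm2, with means of 187 TPM for Mcm4, 183 for Mcm5, 164 for Mcm3, 146 for Mcm6 and 140 for Mcm7. Mcm2 averaged 89.1 TPM, below Rrm1 and the clamp gene Pcna. By TPM Mcm2 was the lowest of the 6 in every mouse, and the ranges of the other 5 over the mice overlapped. The order is not firm, and the place of Mcm2 depends on the division by length. Its merged exon length is 6956 bases, against 3589 (Mcm4) to 4666 (Mcm6) for the others. By CPM it had 272 in KO1, above Mcm3 (221), Mcm6 (253) and Mcm7 (268), and it was the lowest only in KO3.

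Factors that load or start the helicase lay lower. Cdt1 averaged 62.5 TPM and Cdc6 6.39 TPM, and Cdc6 had a count in 44 of 284 cells (15.5%). Among the activators, the GINS subunits averaged 78.4 TPM for Gins4, 23.3 for Gins1, 12.0 for Gins2 and 8.63 for Gins3, though the 4 proteins work as a single complex. Cdc45 averaged 36.1 TPM and Mcm10 7.13 TPM. At the fork, Pcna averaged 135 TPM, and the clamp loader subunits Rfc2, Rfc3, Rfc4 and Rfc5 lay between 30.9 and 63.3 TPM. The catalytic subunit of polymerase delta, Pold1, averaged 50.9 TPM, and that of polymerase epsilon, Pole, 7.02 TPM. The primase subunits Prim1 and Prim2 averaged 37.7 and 17.9 TPM, and the polymerase alpha subunits Pola1 and Pola2 19.4 and 14.0 TPM. DNA ligase Lig1 averaged 80.5 TPM, the single-strand binding proteins Rpa1, Rpa2 and Rpa3 57.5, 57.0 and 46.8 TPM, and the exonuclease Exo1 8.07 TPM. Of the factors coupled to the fork, the histone chaperone Asf1b averaged 47.9 TPM, Wdhd1, which links helicase and polymerase alpha, 12.9 TPM, and Dtl, which directs the destruction of Cdt1, 5.49 TPM. The lowest was the flap nuclease Fen1 with 2.02 TPM from 635 counts in all cells, although 49.3% of the cells had a count.

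Some of these levels depend on how reads were divided. Exons of Fen1 overlap the antisense gene Gm10143 over 1909 bases and Tmem258 over 130 bases, and the labels name no strand setting. Gm10143 took 151 counts and Tmem258 13637, beside 635 for Fen1. In all, 11 of the 37 genes share exon bases with another gene, among them Cdc45 with Ufd1, Gins2 with Gse1, Mcm7 with Cops6 and Ap4m1, and Rfc4 with Eif4a2. Pcna has a processed pseudogene, Pcna-ps2, that took 5767 counts beside 41870 for Pcna, and Tyms-ps took 878 counts beside 17671 for Tyms. The levels of these genes are uncertain by that division.

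**Figure D1:**
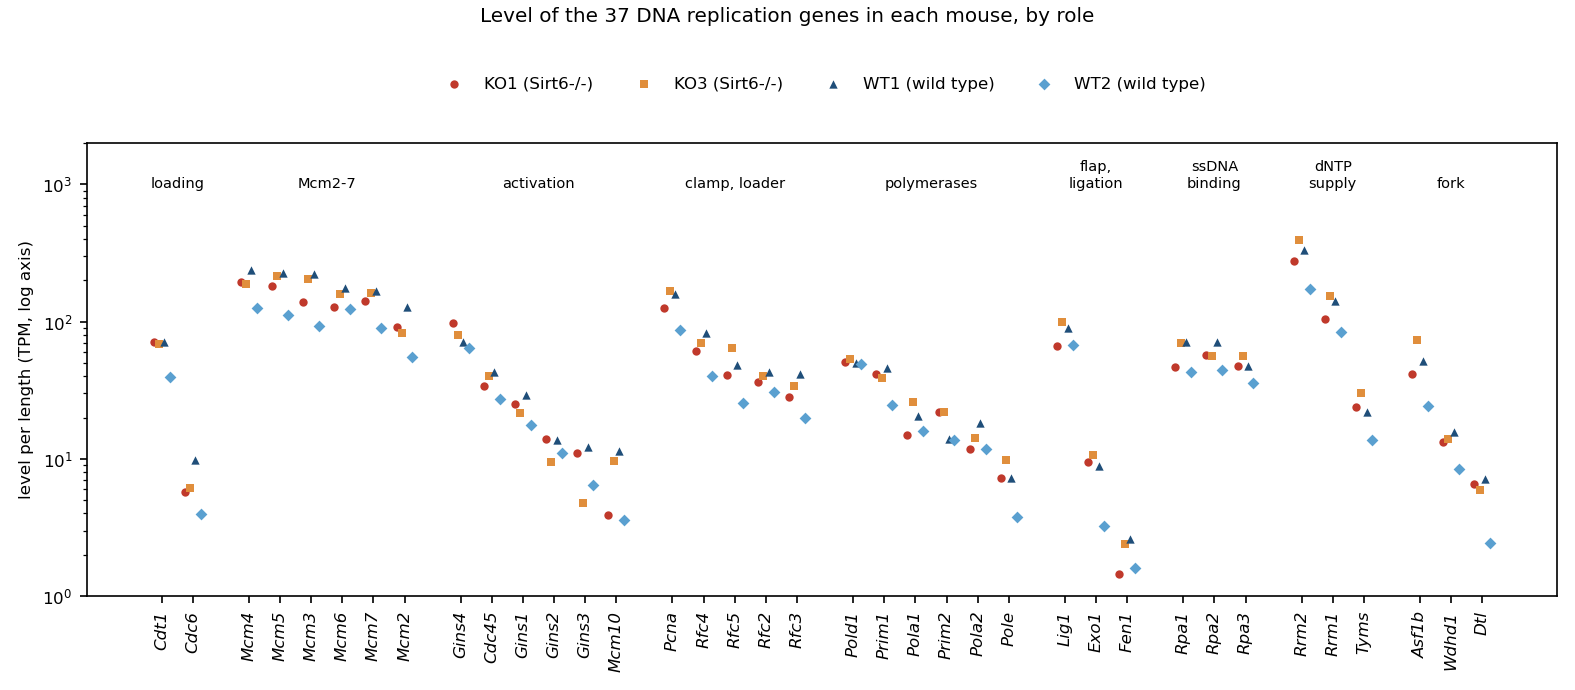
Level per length (TPM, log axis) of each of the 37 genes in KO1 and KO3 (Sirt6-/-, circles and squares) and in WT1 and WT2 (wild type, triangles and diamonds), grouped by role. Each point is the sum over the cells of a mouse; by mean Rrm2 lies highest, followed by 5 of the 6 Mcm2-7 subunits, Fen1 lies lowest, and WT2 is the lowest of the 4 mice for most genes.

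The 4 mice differed in how much of the whole set they held, and the mouse with the lowest level was of the wild type label. Summed over the 37 genes the level was 4022 CPM in KO1 and 5023 CPM in KO3, against 4782 CPM in WT1 and 2818 CPM in WT2. The helicase subunits made up 1619 CPM of this in KO1 and 1868 CPM in KO3, against 2020 CPM in WT1 and 1086 CPM in WT2. WT2 had the lowest sum in each of the 9 roles. Gene by gene it was the lowest mouse for 31 of the 37 genes by CPM, and for 35 by the share of cells with a count. The shares of cells with Mcm2 were 67.1% in KO1 and 75.9% in KO3, against 71.0% in WT1 and 38.6% in WT2. For Pcna, the most widely detected after Rrm1, they were 87.7% in KO1 and 85.2% in KO3, against 91.3% in WT1 and 72.7% in WT2. For Asf1b they were 35.6% and 59.3% in KO1 and KO3, against 46.4% and 18.2% in WT1 and WT2. These shares are from counts as deposited. KO3 had the highest share for 28 genes and WT1 for 9, or for 25 and 12 after thinning, so neither genotype held the highest place throughout. The lowest and highest places were not counted over all genes, so these counts have no background to be read against. WT2 was also the mouse with the fewest detected genes per cell, and the part of this in its low places was not tested.

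Cells spread widely in how many of the replication genes they held. At 500000 counts per cell, the number of the 37 genes detected ranged between 2 and 37, with a median of 19 in KO1, 24.5 in KO3, 24 in WT1 and 10 in WT2. The lower and upper quartiles were 10 and 28 genes in KO1, 15.5 and 30 in KO3, 13 and 31 in WT1 and 7 and 22 in WT2. Cells with at least 19 of the 37 genes are called replication-high here, and 19 cells lay close to that cut, with 17 to 20 genes. The replication-high share was 52.1% of the cells in KO1 (exact 95% interval 40.0 to 63.9%) and 70.4% in KO3 (56.4 to 82.0%), against 63.8% in WT1 (51.3 to 75.0%) and 31.8% in WT2 (22.3 to 42.6%). The genotypes overlapped, since WT1 lay between KO1 and KO3. Sirt6-/- mice averaged 61.2 ± 13.0% and wild type mice 47.8 ± 22.6% (SD, n = 2 mice each), and the difference of 13.4 percentage points had p = 0.667 in a two-sided exact permutation test, which cannot go below 0.333 here. Without WT2 the difference was -2.56 percentage points. The intervals cover counting error over cells only, and cells of a mouse share the animal.

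Replication-high cells held similar amounts of these transcripts in each mouse. The median of their summed level was 5758 CPM per cell in KO1, 5830 in KO3, 6312 in WT1 and 6193 in WT2, against 1022, 1115, 747 and 859 CPM in the other cells of KO1, KO3, WT1 and WT2. WT2 thus had fewer such cells, while the median among them was not lower than in KO1 or KO3. The cut was made on the same genes, so the gap between the cell groups is a description. Replication-high cells also had more detected genes at equal depth, with medians of 6160 to 6722 in the 4 mice against 5122 to 5726 in the other cells.

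**Figure D2:**
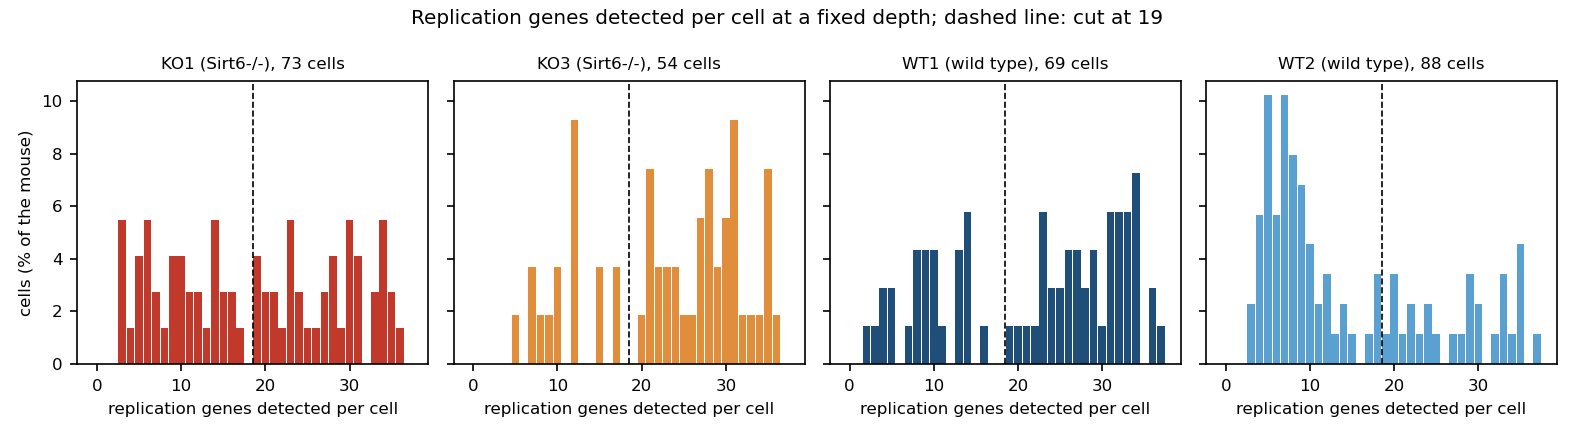
Share of the cells of each mouse (vertical axis, %) by the number of the 37 replication genes detected after thinning to 500000 counts (horizontal axis), KO1 and KO3 left of WT1 and WT2. The dashed line marks the cut of 19 genes; 31.8% of the cells of WT2 lie right of it, against 52.1% to 70.4% in the other 3 mice.

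No replication gene differed between the genotypes by the edgeR quasi-likelihood test on counts summed per mouse, with Benjamini-Hochberg adjustment over 16567 genes. At an adjusted p under 0.05, DESeq2 called 0 of the 37 genes, beside 58 higher and 181 lower of the 17361 genes it tested. The edgeR test called 0 of the 37 genes and 0% of all genes at that threshold. At an unadjusted p under 0.05 stood 1 of the 37 genes, against 5.12% of all genes; the count was 0 without KO1, KO3 or WT2 and 3 without WT1. Each of those fits leaves 1 mouse in a genotype, which is assumed to vary like the mice of the other genotype. The difference, Sirt6-/- over wild type, was positive for 29 of the 37 genes with a median of 0.18 on the log2 scale, beside -0.01 over all genes tested. It was 0.61 without WT1 and -0.08 without WT2, so the sign of the median rested on WT2. Both Sirt6-/- mice lay above both wild type mice for 7 genes (Prim2, Tyms, Gins4, Pole, Exo1, Cdt1 and Rpa3), against 17% of all genes under the same rule. They lay below for 0 genes, against 18.7% of all genes. A count of 7 in 37 is close to that background.

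The 5 genes with the widest difference showed how the mice spread. Levels of these 5 genes are CPM after TMM scaling. Prim2, a primase subunit, had 54.5 CPM in KO1 and 56.6 CPM in KO3, against 32.9 CPM in WT1 and 35.3 CPM in WT2, a log2 difference of 0.71 (SE 0.21) with an unadjusted p of 0.0259 and an adjusted p of 0.868. Its groups did not overlap, and it was the sole gene of the set under the unadjusted threshold. Exo1 had 33.5 and 38.7 CPM in KO1 and KO3, against 29.5 and 11.9 CPM in WT1 and WT2 (log2 difference 0.80, SE 0.50, adjusted p = 0.966). Pole had 33.9 and 47.4 CPM in KO1 and KO3, against 31.6 and 18.4 CPM in WT1 and WT2 (log2 difference 0.70, SE 0.38, adjusted p = 0.965). In both genes WT1 lay close to KO1 and WT2 apart. Tyms had 60.6 and 79.9 CPM in KO1 and KO3, against 52.3 and 36.1 CPM in WT1 and WT2 (log2 difference 0.67, SE 0.30, adjusted p = 0.965). Asf1b had 40.5 and 74.9 CPM in KO1 and KO3, against 47.9 and 24.5 CPM in WT1 and WT2 (log2 difference 0.67, SE 0.49, adjusted p = 0.970), and there the genotypes overlapped. Of 82 other replication genes (further licensing, firing, polymerase, checkpoint, nucleotide and chromatin assembly genes and the E2F family), the edgeR test called 0, DESeq2 called 0 and 1 had an unadjusted p under 0.05, with 50 positive and a median log2 difference of 0.15.

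Within each mouse the replication genes went up and down together from cell to cell. For this, log2(CPM + 1) values of a cell were freed of their linear trends on total counts and on detected genes, and the 31 genes detected in 20% or more of each mouse's cells were taken. The mean Pearson correlation between pairs of these genes was 0.37 over the cells of KO1 and 0.32 over those of KO3, against 0.32 in WT1 and 0.25 in WT2. Over all pairs of 8474 genes that met the same filter it lay between 0.0011 and 0.0035. Of 465 pairs, 436 were positive in each of the 4 mice. Cells of a mouse share the animal and mostly the plate, so these values describe the cells and carry no p. The mean over the mice was 0.32, and 0.42 with the trends left in.

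Pairs of the same role were hardly closer than pairs of different roles, with mean correlations of 0.350 over 49 pairs and 0.311 over 416 pairs. The closest pairs lay within the helicase: Mcm2 correlated with Mcm3 at 0.60, with Mcm6 at 0.60 and with Mcm5 at 0.60, as means of the 4 mice. Measured against the mean of the other 30 genes, Mcm2 was the most typical, with 0.70 in KO1, 0.66 in KO3, 0.77 in WT1 and 0.79 in WT2. Mcm3, Mcm5, Rrm2 and Lig1 followed with means of 0.71, 0.69, 0.69 and 0.69. The least typical were Gins4 (0.34), Prim2 (0.35) and Rpa3 (0.36). Gins4 had 0.48 in KO1 and 0.45 in KO3, against 0.08 in WT1 and 0.34 in WT2, although its product works in the same complex as that of Gins1, which averaged 0.55.

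**Figure D3:**
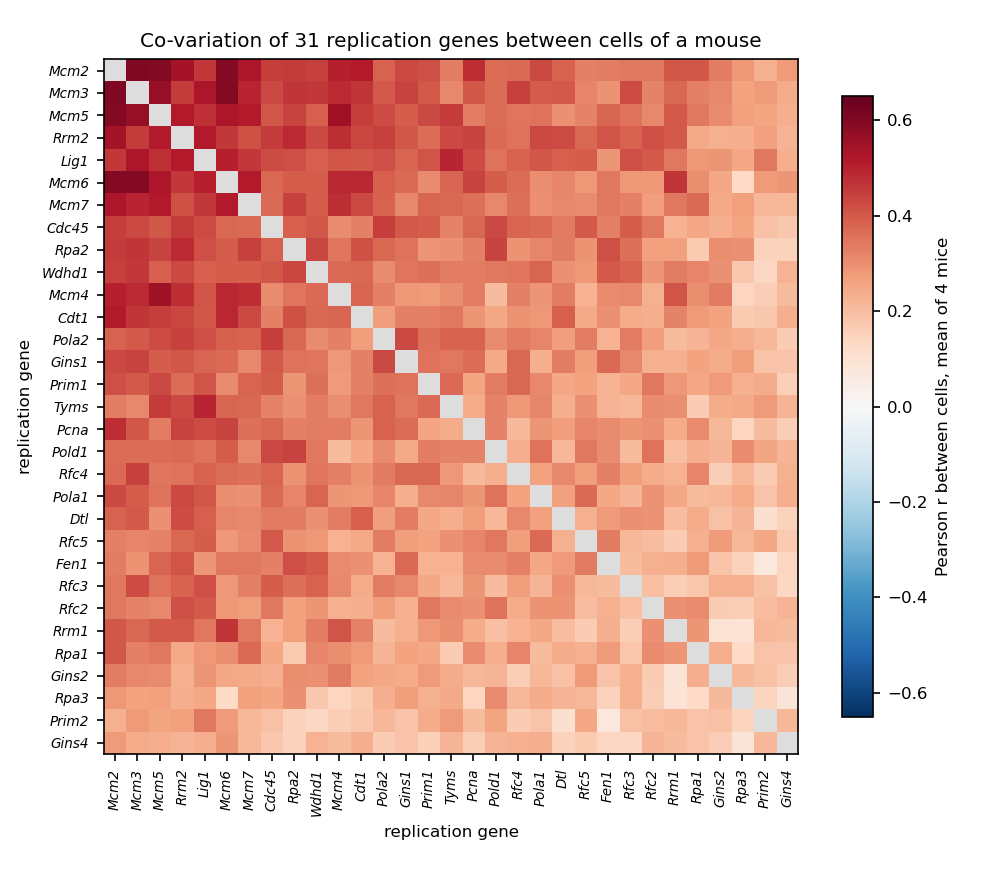
Pearson correlation between cells for each pair of 31 replication genes (both axes), as the mean of 4 mice (colour), ordered by how closely a gene follows the others. Mcm2, Mcm3, Mcm5 and Mcm6 form the darkest corner and Rpa3, Prim2 and Gins4 the palest edge.

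Uhrf1 was the gene outside the set that followed it most closely. Among 8443 non-members the highest mean correlation with the score of the 31 genes was that of this gene, which guides DNA methylation to new strands, with 0.80 in KO1, 0.73 in KO3, 0.78 in WT1 and 0.67 in WT2. The chromatin remodeller Hells (0.65), the pseudogene Pcna-ps2 (0.64), the dUTPase gene Dut (0.64), the chromatin assembly subunit Chaf1b (0.62), the kinetochore gene Cenph (0.61), Tcf19 (0.59), the uracil glycosylase Ung (0.59) and the pseudogene Tyms-ps (0.58) came next as means of the mice. The pseudogenes share sequence with Pcna and Tyms, so their reads may belong to those genes. The median over all non-members was 0.01. Of the 82 other replication genes, 54 met the detection filter and 48 of these were positive, with a median of 0.31. Chromatin assembly and methylation genes had the highest median of the 8 groups, 0.45 over 11 genes.

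At the opposite end stood genes of differentiating and stressed epidermis. The 5 lowest were Grhl3, a transcription factor of the epidermal barrier (mean -0.41), the predicted gene Gm14328 (-0.39), the cornified envelope gene Sprr1b (-0.37), the wound keratin Krt6b (-0.37) and Sfn, which encodes a cell cycle brake of keratinocytes (-0.37). All 9 measured genes of the suprabasal list had negative means, with a median of -0.20, and so had the 4 wound keratins Krt6b, Krt16, Krt6a and Krt17 (-0.37, -0.33, -0.29 and -0.05). The basal list had a median of 0.14 over 15 genes and the mitotic list 0.20 over 31 genes.

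To compare cells rather than genes, the cells of each mouse were ranked by the mean z-score of a gene list that holds no replication gene, again with the trends on total counts and detected genes removed, divided into 3 equal groups, and the top group (18 to 29 cells a mouse) was set against the bottom group. Counts were summed per mouse and group and tested with edgeR with the mouse as a block. For wound keratins (Krt6a, Krt6b, Krt16 and Krt17, keratins that epidermis makes on injury and in hyperplasia), the replication genes lay lower in the top group for 36 of 37 genes, with a median log2 difference of -0.98 beside -0.02 over all 13196 genes tested. The edgeR test called 0 of the 37 genes and 0% of all genes lower, and the lowest adjusted p was 0.0691. Unadjusted, a p under 0.05 was reached by 27 of the 37 genes, all lower, against 5.7% of all genes lower, and by 16 without KO1. DESeq2 called 27 of the 37 genes lower, against 5.56% of all genes it tested. In 25 of the 37 genes the top group lay lower in each of the 4 mice, against 11.8% of all genes.

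Rrm2 had the smallest p among them. It had 183 CPM in KO1, 233 in KO3, 173 in WT1 and 136 in WT2 in the top group, against 369 CPM in KO1, 703 in KO3, 385 in WT1 and 304 in WT2 in the bottom group. All 4 mice moved the same way, and the log2 difference was -1.23 (SE 0.13, edgeR adjusted p = 0.0691). Wdhd1 stood at 15.3, 19.2, 14.0 and 13.3 CPM in the top group of KO1, KO3, WT1 and WT2, against 76.0, 65.6, 48.2 and 46.2 CPM in the bottom group (log2 difference -1.92, SE 0.21, edgeR adjusted p = 0.0774). No value of the top group reached any of the bottom group. Asf1b (log2 difference -1.54, SE 0.19), Rfc5 (-1.03, SE 0.15) and Mcm7 (-0.93, SE 0.14) had edgeR adjusted p-values of 0.0884, 0.111 and 0.115. Mcm2, Mcm4 and Pcna were lower in KO1, KO3 and WT1 only, and in WT2 Mcm2 had 195 CPM in the top and 191 CPM in the bottom group. The exception in sign was Cdc6 with 0.44 (SE 1.73), a gene at 0 CPM in the bottom group of KO1. Of 81 other replication genes tested, edgeR called 0. The smallest p was that of Cmpk1, a nucleoside monophosphate kinase, which lay higher in the top group of 4 of 4 mice (log2 difference 1.09, SE 0.15, edgeR adjusted p = 0.109). It was the sole one of the 81 that was higher at an unadjusted p under 0.05, and 24 were lower, among them Uhrf1 (-1.02, SE 0.21), the thymidine kinase Tk1 (-0.92, SE 0.16) and the DNA methyltransferase Dnmt1 (-0.94, SE 0.18).

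Wound keratin and replication were not exclusive in a cell. Of the cells in the top wound keratin group, 37.5% in KO1, 38.9% in KO3, 30.4% in WT1 and 31% in WT2 were replication-high, against 62.5%, 83.3%, 69.6% and 31% in the bottom group of KO1, KO3, WT1 and WT2. The share was lower in the top group of KO1, KO3 and WT1 and equal in WT2. The mean difference was -27.1 ± 19.9 percentage points (SD, n = 4 mice), with p = 0.25 in an exact sign-flip permutation test whose smallest p is 0.125. Across cells, the correlation of the replication score with the wound keratin score was -0.38 in KO1 (73 cells) and -0.57 in KO3 (54 cells), against -0.44 in WT1 (69 cells) and -0.02 in WT2 (88 cells). The median number of detected genes was 5964 to 6828 in the top groups and 5593 to 7016 in the bottom groups. Likeness in this number is no check, since the trend on detected genes had been removed from the score that ranked the cells.

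These differences rest on the removal of the trends. Where cells were ranked on scores with the trends left in, the median log2 difference of the replication genes was -0.15 for wound keratins. In that ranking 0 of the 37 genes had an unadjusted p under 0.05. The replication-high share differed by a mean of -0.857 percentage points, over mice that went opposite ways. It was 45.8%, 55.6% and 47.8% in the top groups of KO1, KO3 and WT1, against 54.2%, 83.3% and 56.5% in the bottom groups. In WT2 it was 55.2% in the top and 13.8% in the bottom group. The top groups of that ranking had medians of 6177 to 7115 detected genes against 5417 to 6662.5 in the bottom groups. With the trends left in both scores, the correlation across cells was -0.14 in KO1 and -0.41 in KO3, against 0.09 in WT1 and 0.36 in WT2.

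**Figure D4:**
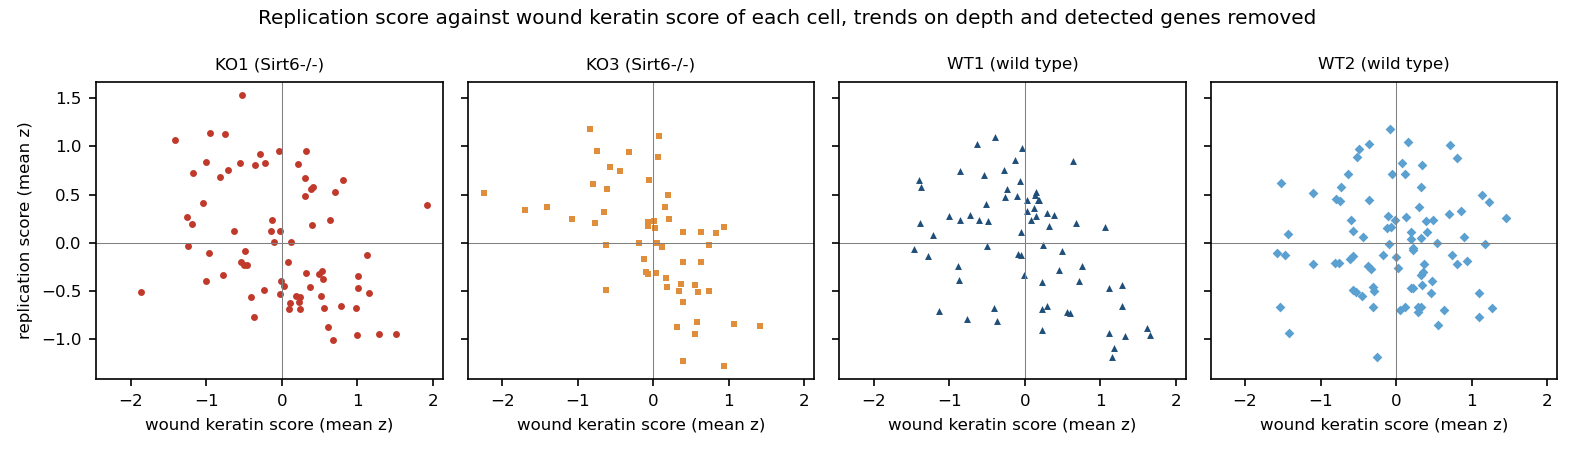
Replication score (vertical, mean z of 31 genes) against wound keratin score (horizontal, mean z of 4 keratins) for each cell, KO1 and KO3 left of WT1 and WT2, trends on total counts and detected genes removed. The points fall toward the right in KO1, KO3 and WT1 (r = -0.38, -0.57 and -0.44) and show no slope in WT2 (r = -0.02), and every panel holds cells above 0 on both axes.

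Cells with the highest suprabasal score, the mean of 16 genes of differentiating epidermis such as Krt1, Krt10 and Grhl3, were the next set compared with cells with the lowest, and again the replication genes lay lower. The difference was negative for 35 of 37 genes, with a median log2 difference of -0.67 beside -0.000235 over 13124 genes tested. The edgeR test called 1 gene lower, the clamp loader subunit Rfc2, against 0.16% of all genes, and 19 of the 37 genes were lower at an unadjusted p under 0.05, against 8.91% of all genes. Without KO1 these were 12 genes and without KO3 10. DESeq2 called 16 lower, against 8.96%. In 20 of the 37 genes the top group lay lower in all 4 mice, against 14.5% of all genes.

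Rfc2 had 60.8, 68.2, 68.6 and 41.7 CPM in the top group of KO1, KO3, WT1 and WT2, against 134, 157, 141 and 100.2 CPM in the bottom group. The groups did not overlap over the mice, and the log2 difference was -1.16 (SE 0.12, edgeR adjusted p = 0.0372). That call did not hold when any of KO1, KO3, WT1 or WT2 was left out (adjusted p 0.177, 0.141, 0.181 and 0.111). Mcm2 (log2 difference -0.71, SE 0.11), Cdc45 (-0.98, SE 0.16), Rrm2 (-0.96, SE 0.16) and Mcm3 (-0.55, SE 0.11) had edgeR adjusted p-values of 0.0730, 0.0775, 0.0809 and 0.0962, and each was lower in 4 of 4 mice. Replication-high cells made up 50.0% of the top group in KO1, 44.4% in KO3, 56.5% in WT1 and 34.5% in WT2, against 54.2%, 88.9%, 73.9% and 37.9% of the bottom group. The mean difference of -17.4 ± 19.2 percentage points (SD, n = 4 mice) had p = 0.125 in the exact sign-flip permutation test, the smallest possible, and KO3 alone held most of it. Without removal of the trends the median log2 difference was -0.08 and the share differed by a mean of 2.53 percentage points, so the direction of the mean turned. The mice did not move together. The share was 50.0% in the top group of KO1 and 55.2% in that of WT2, against 45.8% and 10.3% in their bottom groups. In KO3 it was 50.0% against 88.9%, and in WT1 56.5% in both groups. The top groups of that ranking had medians of 6129 to 7052 detected genes against 5188 to 6537 in the bottom groups.

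Replication genes lay higher in cells with high levels of mitotic genes, though edgeR called none of them. Between the top and the bottom group by 50 mitotic genes, none of them in the set, 36 of 37 replication genes were positive, with a median log2 difference of 0.95 beside -0.02 over 13249 genes tested. The edgeR test called 0 of the 37 genes, against 0.0151% of all genes higher, and the lowest adjusted p was 0.178. Unadjusted, a p under 0.05 was reached by 18 genes, all higher, against 4.42% of all genes, and by 11 without KO1 or without WT2. DESeq2 called 12 higher, against 2.52%, and 22 were higher in all 4 mice, against 9.68%. The sole negative value was that of Gins2 (-0.27).

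By role, an unadjusted p under 0.05 was reached by all 6 primase and polymerase genes and all 3 nucleotide enzymes, with role medians of 1.13 and 1.69 on the log2 scale. Of the 6 helicase subunits 1 did so, and their role median was 0.54. Helicase loading (1.77, 0 of 2 genes), helicase activation (1.62, 2 of 6) and flap removal and ligation (1.43, 1 of 3) had higher medians with fewer such genes. The fork-coupled factors had a median of 1.15 (2 of 3 genes), the clamp and its loader 0.74 (2 of 5) and single-strand binding 0.65 (1 of 3). Whether the roles differ from each other was not tested. Rrm1 had 690, 770, 860 and 532 CPM in the top group of KO1, KO3, WT1 and WT2, against 308, 526, 417 and 292 CPM in the bottom group (log2 difference 0.91, SE 0.13, edgeR adjusted p = 0.178). Asf1b had 86.4, 83.0, 75.0 and 42.2 CPM in the top group of KO1, KO3, WT1 and WT2, against 16.4, 16.6, 24.6 and 1.41 CPM in the bottom group (log2 difference 2.71, SE 0.59, edgeR adjusted p = 0.362). For both genes every mouse was higher in its top group. Pold1 (log2 difference 0.95, SE 0.15), Pola1 (0.90, SE 0.18) and Lig1 (1.11, SE 0.24) were likewise higher in 4 of 4 mice, with edgeR adjusted p-values of 0.270, 0.332 and 0.371. Mcm2, in contrast, had 144 CPM in the top and 209 CPM in the bottom group of KO3, and was higher in the other 3 mice.

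Replication-high cells were not confined to the cells with high mitotic scores. They made up 79.2% of the top mitotic group in KO1, 66.7% in KO3, 87.0% in WT1 and 41.4% in WT2, against 37.5%, 50.0%, 43.5% and 27.6% of the bottom group. The mean difference was 28.9 ± 15.8 percentage points (SD, n = 4 mice; exact sign-flip permutation p = 0.125, the smallest possible), positive in 4 of 4 mice. In the middle group the share was 40.0% in KO1, 94.4% in KO3, 60.9% in WT1 and 26.7% in WT2. The middle group thus lay above the top group in KO3 and below the bottom group in WT2, and between them in KO1 and WT1. Even so, 36 of the 94 cells in the bottom mitotic groups had at least 19 replication genes. Keeping the trends gave a median log2 difference of 2.00 and a difference in share of 66.5 percentage points, with medians of 6545 to 7346 detected genes in the top groups against 5259 to 6257.5 in the bottom groups.

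Glycolysis genes, which the study set at its centre, gave the smallest differences of the 4 lists once the trends were removed. Between the top and the bottom group by 21 glycolysis genes, 26 of 37 replication genes were negative, with a median log2 difference of -0.21 beside -0.000386 over all genes. DESeq2 called 0 of the 37 genes, beside 86 higher and 132 lower of the 14338 genes it tested. The edgeR test called 0 of the 37 genes and 0% of all 13237 genes. By edgeR, 3 genes (Rfc3, Prim1 and Rrm2) had an unadjusted p under 0.05, all lower, against 2.45% of all genes lower. That count was 0 without KO1 or WT1 and 7 without KO3. Rfc3 had the smallest p: 41.3, 41.2, 31.1 and 23.6 CPM in the top group of KO1, KO3, WT1 and WT2, against 66.6, 56.5, 62.0 and 35.7 CPM in the bottom group (log2 difference -0.68, SE 0.20, edgeR adjusted p = 1). Prim1 (log2 difference -0.84, SE 0.26), Rrm2 (-0.65, SE 0.23), Asf1b (-0.77, SE 0.35) and Mcm10 (-1.34, SE 0.62) also had an edgeR adjusted p of 1. Replication-high shares differed by 4.17 percentage points in KO1, 5.56 in KO3, -17.4 in WT1 and 10.3 in WT2, a mean of 0.669 ± 12.3 (SD, n = 4 mice; exact sign-flip permutation p = 1). With the trends left in, both measures were positive: the median log2 difference was 0.99 and the share differed by 46.9 percentage points. In that ranking the top groups had medians of 6237 to 7066 detected genes against 5142 to 6073.5 in the bottom groups.

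**Figure D5:**
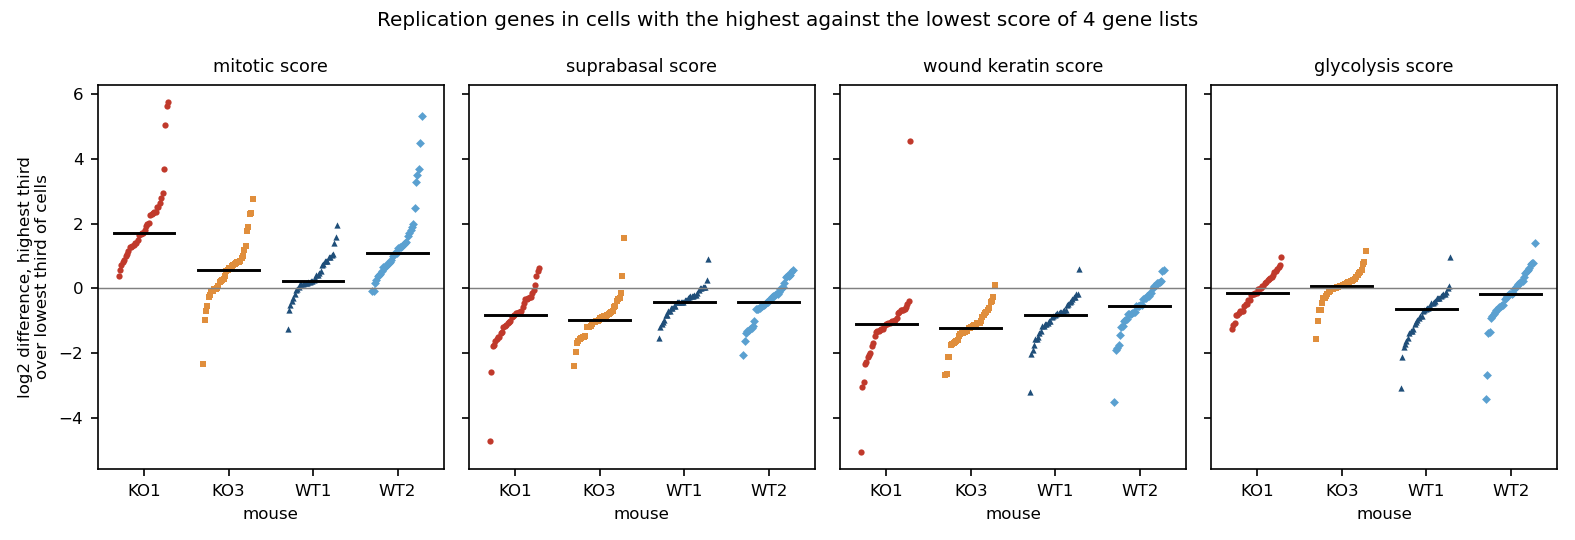
Log2 difference (vertical) of each of the 37 replication genes between the top and the bottom group of the cells of a mouse, for 4 gene list scores (panels), KO1 and KO3 left of WT1 and WT2; each point is a gene and the bar is the median. Medians are positive in all 4 mice for the mitotic score (0.24 to 1.71), negative in all 4 for the suprabasal (-0.96 to -0.41) and wound keratin (-1.22 to -0.53) scores, and near 0 for the glycolysis score except in WT1 (-0.63).

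Whether any of these differences between top and bottom groups was itself different between the genotypes was tested as an interaction in edgeR. No replication gene passed in any of the 4 contrasts: 0 of the 37 genes and 0 of all genes were called, and the lowest edgeR adjusted p was 1. For the mitotic score 2 of the 37 genes had an unadjusted p under 0.05, against 3.52% of all genes. The count was 5 for the suprabasal score, against 4.12%, 3 for the wound keratin score, against 3.92%, and 1 for the glycolysis score, against 3.44%. The estimates, the log2 difference in Sirt6-/- mice minus that in wild type mice, mostly had one sign within a contrast. They were negative for 31 of the 37 genes for the suprabasal score (median -0.49, beside -0.01 over all genes) and for 31 for the wound keratin score (median -0.57, beside -0.03). They were positive for 26 genes for the mitotic score (median 0.23, beside 0.01) and for 33 for the glycolysis score (median 0.45, beside -0.01). The genes share cells and mice, so these counts carry no test. A p that misses the threshold does not show that the genotypes acted alike.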

How the data were processed

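Expected counts for each gene in each cell are what the authors deposited; STAR and RSEM on mm10 (GRCm38) produced them, per the submitters' processing notes, which name no version or setting. They were not whole for 21.5% of the values above 0. Symbols and exon lengths came from GENCODE M21 on GRCm38 (54156 of 54247 IDs matched, 299 without the version suffix; the rest held 0.0001% of the counts). All cells were kept, doublets were not called since wells held single sorted cells, and 0 pairs of cells were identical.

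The 37 genes and all gene lists were chosen with earlier results of these data known. Cell counts were summed per mouse, or per mouse and top or bottom group of cells, rounded to whole numbers and tested with edgeR 4.0.16 in R 4.3.3 (filterByExpr, TMM scaling, glmQLFit and glmQLFTest, two-sided, Benjamini-Hochberg over all genes tested, threshold 0.05). DESeq2 1.42.0 was an alternative. Single values per mouse had exact permutation tests. Labels do not say whether the mice of a genotype shared a litter. Cell scores are the mean within-mouse z of log2(CPM + 1) over the genes of a list with a count in at least 5% of all cells, after removal of linear trends on log10 total counts and detected genes. Thinning used a seed of 7. Intervals are Clopper-Pearson. Fits and correlations were tried on simulated data. The sums simulated for the fits were set to vary less than the common spread of the real sums. They therefore do not show what the fits could detect here.

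Every member was named by role. Full statistics went to the 5 members with the widest genotype difference and the 5 with the smallest p in each contrast; non-members named are those among the 10 most and 5 least alike, of which 1 is not reported here. A few further members and other replication genes with values (for example Mcm2 in WT2, Cdc6, Cmpk1, Uhrf1, Tk1 and Dnmt1) were picked after their values were seen.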

Additional observations from a re-analysis of the deposited data

How the results depend on the processing

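No paired analysis of the genotypes was possible, because the labels name no litter or other link between mice of different genotypes. The contrasts between top and bottom groups of cells have the mouse as a block throughout. Leaving out a mouse leaves 1 in a genotype, assumed to vary like the other genotype's mice in the genotype fit. It moved the median genotype difference of the replication genes between -0.0832 (without WT2) and 0.61 (without WT1) and the genotype difference in the replication-high share between -2.56 and 29.4 percentage points, and kept the medians of the contrasts between 0.76 and 1.06 (mitotic), -0.77 and -0.58 (suprabasal), -1.05 and -0.87 (wound keratin) and -0.31 and -0.00489 (glycolysis), and the differences in share between 24.0 and 33.9, -22.0 and -8.34, -36.2 and -21.4, and -2.56 and 6.69 percentage points. The suprabasal call of 1 gene became 0 without any mouse, with no filter on low counts, with the top group drawn tighter and set against all other cells and with the trends left in.

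DESeq2 called 12, 16 and 27 replication genes in the mitotic, suprabasal and wound keratin contrasts, against 0, 1 and 0 by edgeR; without Krt17 in the wound keratin list edgeR called 1, Rrm2. With the trends left in the scores, the medians became 2.00 (mitotic), -0.0751 (suprabasal), -0.15 (wound keratin) and 0.99 (glycolysis). The mean differences in share became 66.5, 2.53, -0.857 and 46.9 percentage points, and the suprabasal and wound keratin means joined mice that went opposite ways. In that setting the suprabasal values of Rrm2 and Mcm3 turned to 0.0938 and 0.0156, and the glycolysis values of Rfc3, Prim1, Rrm2, Asf1b and Mcm10 to 0.54, 0.73, 1.23, 1.17 and 2.31. The cause was not tested. The glycolysis difference in share was -2.17 with a cut of 15 genes, -6.01 with a cut of 22, -0.497 without KO1, -0.960 without KO3 and -2.56 without WT2. Co-variation had a mean of 0.42 with no trend removed and 0.30 to 0.34 when a mouse was left out. With 2 mice per genotype, 4 mice in all and no molecular identifiers, small differences were not detectable, and large ones could miss the threshold too. Asf1b, with a log2 difference of 2.71 in the mitotic contrast, had an edgeR adjusted p of 0.362. The exact tests cannot pass 0.05.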

Other observations

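Other groups of replication genes followed the score of the 31 genes to different degrees, given here as medians over the genes that met the detection filter and of the mean correlation over the 4 mice. The median was 0.34 for 4 of 10 origin firing genes, 0.30 for 10 of 11 further nucleotide genes, 0.29 for 6 of 10 fork protection and checkpoint genes, 0.27 for 6 of 11 further polymerase and clamp loader subunits, 0.23 for 5 of 13 E2F and pocket protein genes, 0.14 for 7 of 10 licensing genes and 0.08 for 5 of 6 primer removal genes. The basal score was made mostly of keratins, integrins and laminins of the basal layer. It correlated with the replication score at -0.05 in KO1 and 0.49 in KO3, against 0.20 in WT1 and 0.23 in WT2. KO1 was the lowest and KO3 the highest. With the trends left in both scores these values were 0.00430 in KO1 and 0.58 in KO3, against 0.20 in WT1 and -0.00737 in WT2. Of 68 other replication genes with a RefSeq start, 20 (29.4%) held E2F-type letters in their windows, beside 41.4% of the 29 genes of the set and 2.61% of all genes.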
